A study of Mus musculus with 8 samples.

Results

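The 10 genes described here build the MHC class I pathway and its proteasome: the heavy chains H2-K1 and H2-D1, their partner B2m, the peptide transporter genes Tap1 and Tap2, the loading factor Tapbp, the immunoproteasome subunits Psmb8, Psmb9 and Psmb10, and the regulator Nlrc5. They were chosen by name for their place in this pathway, with earlier results of these data known, out of 23523 features in the deposited table. All 10 were among the 14641 genes that passed a filter on low counts. The RNA came from 3 normal mouse brain samples and 5 glioblastomas raised in mice. A lentiviral vector with HrasG12V, an oncogene whose protein change is G12V, and an shRNA against p53 had started each tumour, which was taken at the clinical endpoint. Tumour marked by GFP was freed of normal brain under a dissecting microscope. Strain, age, sex and brain region of the samples, the promoter of the vector and the cells it entered are not stated in the labels used here.

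MHC class I molecules show peptides from inside the cell to CD8+ T cells. The proteasome cuts proteins into peptides, the TAP transporter carries these into the endoplasmic reticulum, and tapasin helps load them onto a heavy chain paired with beta-2 microglobulin. Interferons raise most of these genes, through IRF and other factors and through NLRC5, which acts on an enhanceosome of RFX, CREB and NF-Y proteins at class I promoters. In the healthy brain, neurons carry little class I protein on their surface.

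Promoter sequence is shown for the heavy chains, B2m and the Psmb9-Tap1 pair, since the elements named in this background were described at promoters of this kind. RefSeq promoter windows, from 250 bases before the start to 50 after it, were matched for 8 of the 10 genes, all but Tap2 and Nlrc5, in build GRCm38.p6. The authors' values were made on another build, so these coordinates belong to the sequences alone. Both strands were searched for GAAANNGAA, the core of the interferon-stimulated response element, for TTCNNNGAA, the gamma-activated site, for CCAAT, the Y box bound by NF-Y, for TGACG, the core of a CREB site, and for the NF-kB consensus. Capitals mark the matches, and the 250 bases before the start are printed 5′ to 3′ on the gene's strand. The windows were chr17:34000334-34000583 (minus strand) for the second of 2 listed H2-K1 starts, chr17:35262844-35263093 (plus) for H2-D1 and chr2:122147437-122147686 (plus) for B2m. Psmb9 and Tap1 lie head to head, and the last sequence is the stretch between their starts, chr17:34187331-34187555, on the plus strand.
H2-K1: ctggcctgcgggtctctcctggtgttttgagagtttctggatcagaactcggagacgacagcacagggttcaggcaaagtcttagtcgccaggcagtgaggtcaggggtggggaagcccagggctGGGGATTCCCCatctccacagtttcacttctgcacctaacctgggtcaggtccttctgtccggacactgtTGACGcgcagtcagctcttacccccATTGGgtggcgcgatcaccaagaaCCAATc
H2-D1: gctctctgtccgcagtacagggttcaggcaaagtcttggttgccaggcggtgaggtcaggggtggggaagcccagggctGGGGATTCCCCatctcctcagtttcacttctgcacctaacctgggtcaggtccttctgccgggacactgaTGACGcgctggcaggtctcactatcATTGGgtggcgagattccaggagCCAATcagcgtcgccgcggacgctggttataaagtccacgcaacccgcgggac
B2m: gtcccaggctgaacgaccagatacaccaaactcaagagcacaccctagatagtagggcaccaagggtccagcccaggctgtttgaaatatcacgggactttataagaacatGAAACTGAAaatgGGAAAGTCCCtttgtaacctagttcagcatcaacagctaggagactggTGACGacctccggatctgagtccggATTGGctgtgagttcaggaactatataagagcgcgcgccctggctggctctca
Psmb9-Tap1: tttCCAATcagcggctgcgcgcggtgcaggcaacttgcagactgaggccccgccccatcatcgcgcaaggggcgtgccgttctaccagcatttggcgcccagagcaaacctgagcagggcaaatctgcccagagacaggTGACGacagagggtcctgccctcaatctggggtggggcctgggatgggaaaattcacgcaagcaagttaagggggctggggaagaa

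The H2-K1 and H2-D1 windows each held 1 CREB core between an NF-kB match and a pair of Y boxes. Their NF-kB run was read as 2 overlapping matches, which began at positions -125 and -124 from the H2-K1 start and at -171 and -170 from the H2-D1 start. B2m held an interferon-response core at -139, an NF-kB match at -126, a CREB core at -78 and a Y box at -53, and a further CREB core after the start. Psmb9 and Tap1 shared 1 Y box, 4 bases from the Psmb9 start, and 1 CREB core, 140 bases from that start and 86 from the Tap1 start. Tapbp held 2 Y boxes, Psmb8 held 1 gamma-activated site, and the Psmb10 window held none of these letters. Among all 32851 promoter windows of 300 bases, 8.56% held the interferon-response core, 8.30% the gamma-activated site, 37.4% the Y box, 20.8% the CREB core and 4.51% the NF-kB consensus. A match is a run of letters and was not tested as a binding site. Only exact matches were searched and marked, so a window without a match may still hold a variant of the element.

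The libraries held 5490356 to 15564279 fragments assigned to genes, so 3 fragments corresponded to 0.193 to 0.546 CPM, fragments scaled to library size, in a library. These depths are given before TMM scaling, a correction for library composition that all CPM values of genes below include. The labels do not state whether each sample was a different animal. The p-values therefore describe spread among these samples, which may be technical. Hras, which the vector carries, was higher in the tumours, at 413 ± 75.1 CPM (SD, n = 5) against 99.5 ± 4.61 CPM in brain (SD, n = 3), and transcripts of the vector and of the mouse gene cannot be told apart. For Trp53, the gene the shRNA targets, the log2 change was -0.46 ± 0.35 (SE; 95% interval -1.26 to 0.33) and missed the threshold (edgeR adjusted p = 0.262). The samples were whole tissue, in which more cells of a type and more RNA per cell cannot be told apart.

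All 10 genes were higher in glioblastoma (edgeR quasi-likelihood test, Benjamini-Hochberg adjusted p under 0.05), where 37.1% of all tested genes were called higher, 33.9% lower and 71% in either direction. For each of the 10, every tumour lay above every brain, as it did for 36.1% of tested genes. The groups did not overlap, one way or the other, for 70.6%. The median log2 fold change was 3.81 over the 10 genes and 0.06 over all genes tested. Psmb9 and Nlrc5 passed the low-count filter only through the tumours and could not have been called lower. The other 8 lay above the filter's level of 1.32 CPM (before TMM scaling) in every brain, and all 8 were called higher, against 31.6% of the 12954 genes that met this condition. Because the 10 genes were chosen with earlier results of these data known, these shares are a description only. A rise of 8-fold or more was called for 9.97% of tested genes. Together the 10 genes took 0.0160% to 0.0164% of fragments in the brains and 0.205% to 0.317% in the tumours.

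**Figure D1:**
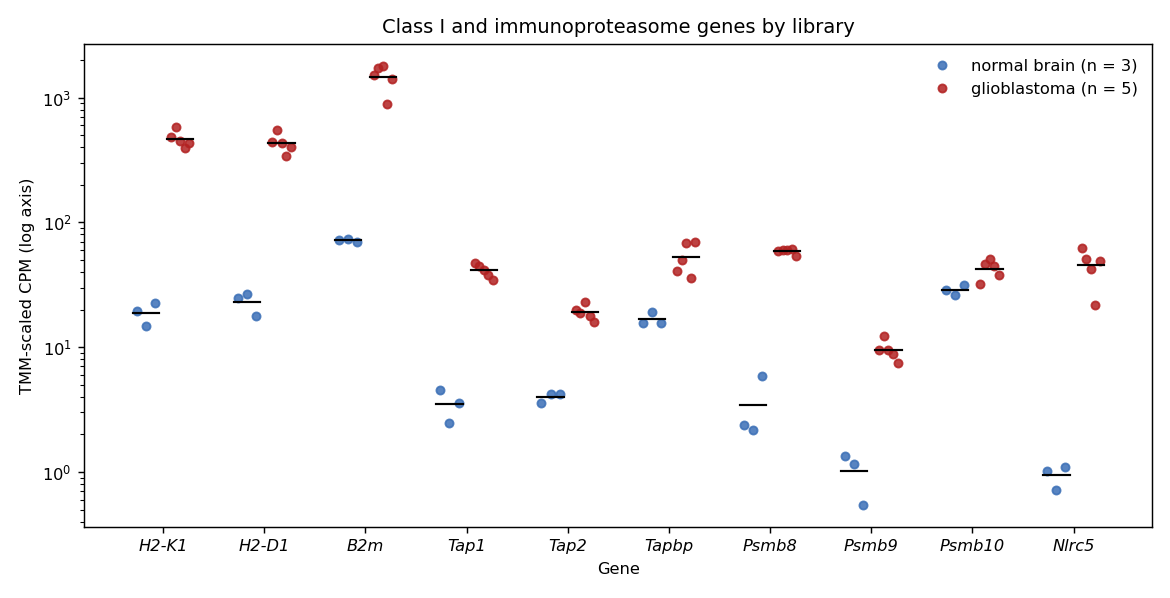
CPM of the 10 genes in each library, on a log axis, with brains and tumours as separate points and black lines at the group means. Every tumour point lies above every brain point, by the least for Psmb10 (lowest tumour 32.0 CPM, highest brain 31.4 CPM).

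Nlrc5, the class I transactivator, showed the largest change of the 10. It read 1.01, 0.721 and 1.09 CPM in the 3 brains, in order, against 62.7, 51.1, 42.5, 21.9 and 49.2 CPM in tumours 1 to 5. The groups were far apart, and tumour 4 was the lowest tumour. Its rise on the log2 scale was 5.57 ± 0.44 (SE; 3 brains against 5 tumours; 95% interval 4.58 to 6.56; edgeR adjusted p = 8.9e-06), and 3.18% of tested genes had a larger one. The 3 brain libraries together held 19 Nlrc5 fragments. On the log2(FPKM + 1) scale, which compresses low levels, the change was 2.64.

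The classical heavy chains rose by similar amounts. H2-K1 read 19.3, 14.9 and 22.6 CPM in the 3 brains, in order, against 486, 584, 449, 392 and 431 CPM in tumours 1 to 5. H2-D1 read 24.9, 26.7 and 17.9 CPM in the brains against 443, 554, 435, 343 and 403 CPM in the tumours. In both genes tumour 2 was the highest and tumour 4 the lowest, and brains and tumours did not overlap. The log2 fold changes were 4.63 ± 0.23 for H2-K1 (SE; 95% interval 4.11 to 5.15; edgeR adjusted p = 9.2e-07) and 4.23 ± 0.24 for H2-D1 (SE; 3.70 to 4.77; edgeR adjusted p = 1.6e-06). The ratio of H2-K1 to H2-D1 in FPKM, a level per length, was 0.920 ± 0.387 in the brains (SD, n = 3) and 1.15 ± 0.0442 in the tumours (SD, n = 5), a difference that did not pass the test (exact permutation p = 0.214, two-sided). The genes belong to one family. Of the 50-base stretches in their GENCODE transcripts, 8.79% of H2-K1 and 14.3% of H2-D1 occur in another gene as well. Between the pair themselves, 6.94% of the H2-K1 stretches and 5.31% of the H2-D1 stretches are shared, and H2-D1 shares most with H2-Q1 (7.40%). The division of fragments among these genes is uncertain to that extent, and the strain and its class I alleles are not given.

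B2m, the light chain shared by all class I molecules, moved with the heavy chains. It read 71.6, 73.4 and 69.8 CPM in the 3 brains, in order, against 1509, 1719, 1791, 892 and 1420 CPM in tumours 1 to 5. The brains lay close together, and tumour 4 was the lowest tumour again. B2m rose by 4.36 ± 0.27 on the log2 scale (SE; 95% interval 3.74 to 4.97; edgeR adjusted p = 2.9e-06). Among all features ranked by mean FPKM, B2m stood at place 652 in brain and 22 in the tumours. Its FPKM was 3.87 ± 0.177 times the summed FPKM of H2-K1 and H2-D1 in the brains and 3.66 ± 0.670 times in the tumours (SD). That difference was -0.10 on the log2 scale and did not pass the test (exact permutation p = 0.607, two-sided), and it was 0.00 without tumour 4.

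Both TAP genes rose, with a larger estimate for Tap1. Tap1, one arm of the transporter, read 4.57, 2.45 and 3.54 CPM in the 3 brains, in order, against 47.2, 44.9, 41.8, 37.8 and 34.4 CPM in tumours 1 to 5. Tap2, the other arm, read 3.55, 4.18 and 4.23 CPM in the brains against 19.9, 18.9, 23.2, 17.8 and 15.8 CPM in the tumours. Tumour 5 was the lowest tumour for both genes, and in neither did the groups overlap. The log2 fold change was 3.55 ± 0.24 for Tap1 (SE; edgeR adjusted p = 4.3e-06) and 2.25 ± 0.20 for Tap2 (SE; edgeR adjusted p = 1.9e-05). In FPKM, Tap1 stood at 1.07, 0.488 and 0.698 times Tap2 in the brains and at 1.98, 1.98, 1.50, 1.77 and 1.82 times in the tumours. The brain values rest on 27, 17 and 26 Tap1 fragments and on 21, 29 and 31 Tap2 fragments. The ratio was higher in every tumour than in any brain, with a mean difference of 1.29 on the log2 scale. The exact permutation p was 0.0357 (two-sided), the smallest that 3 samples against 5 can give. After adjustment over the 6 ratios tested it was 0.0536, which misses 0.05.

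Tapbp, which encodes tapasin, rose less. It read 15.7, 19.0 and 15.5 CPM in the 3 brains, in order, against 40.6, 50.3, 68.8, 35.6 and 69.8 CPM in tumours 1 to 5. Tumours 3 and 5 were the high ones and tumour 4 the low one, all above the brains. Tapbp rose by 1.66 ± 0.27 on the log2 scale (SE; 95% interval 1.05 to 2.27; edgeR adjusted p = 0.000527). The annotation places an antisense transcript over 24.9% of the Tapbp exon bases and 14.7% of those of Psmb8. A long non-coding RNA on the opposite strand covers 14.1% of the Tap2 exon bases, and Tap1 and Psmb9 overlap over 212 bases. Whether the authors counted by strand is not given, so fragments of these partners may be included.

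**Figure D2:**
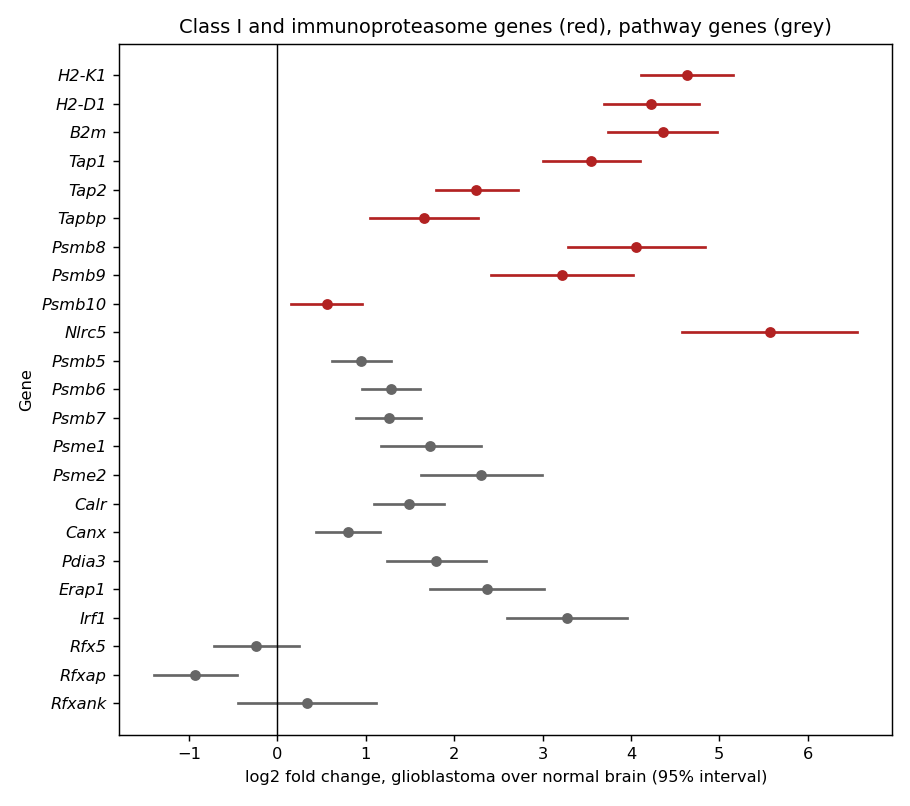
Log2 fold change, glioblastoma against normal brain, with its 95% interval for the 10 class I and immunoproteasome genes in red and for pathway genes in grey, from the fit over 14641 genes. Nlrc5 has the largest change (5.57), and Psmb10 (0.56) lies lower than Psmb5 (0.95), Psmb6 (1.29) and Psmb7 (1.26).

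The immunoproteasome subunits replace the standard catalytic subunits: Psmb8 takes the place of Psmb5, Psmb9 that of Psmb6 and Psmb10 that of Psmb7. Psmb8 read 2.37, 2.16 and 5.86 CPM in the 3 brains, in order, against 58.6, 59.7, 60.4, 61.0 and 53.7 CPM in tumours 1 to 5. The tumours were close to one another, and brain 3 stood above the other brains. Psmb8 rose by 4.06 ± 0.34 on the log2 scale (SE; 95% interval 3.29 to 4.84; edgeR adjusted p = 1.3e-05), and by 4.69 without brain 3. Psmb9 read 1.35, 1.15 and 0.545 CPM in the brains against 9.46, 12.3, 9.45, 8.85 and 7.51 CPM in the tumours. Here brain 3 was the lowest brain. Psmb9 rose by 3.22 ± 0.35 on the log2 scale (SE; 95% interval 2.42 to 4.02; edgeR adjusted p = 5.5e-05).

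Psmb10 changed least. It read 28.8, 26.3 and 31.4 CPM in the 3 brains, in order, against 32.0, 46.7, 50.8, 44.8 and 37.7 CPM in tumours 1 to 5. The groups did not overlap, but the lowest tumour, tumour 1, stood only 1.02-fold above the highest brain. The log2 fold change was 0.56 ± 0.18 (SE; 95% interval 0.15 to 0.96; edgeR adjusted p = 0.0198), and 37.7% of tested genes had a larger one. The call was lost without brain 1 (edgeR adjusted p = 0.0606), without brain 2 (edgeR adjusted p = 0.0831) and with brain 1 and tumour 4 both left out (edgeR adjusted p = 0.0627).

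Set against their standard counterparts, the 3 subunits went different ways. The share of each immunoproteasome subunit in the summed FPKM of its pair was 5.96%, 5.83% and 15.9% for Psmb8 in brains 1 to 3 and 51.2%, 47.1%, 44.4%, 48.2% and 43.9% in tumours 1 to 5. For Psmb9 it was 2.19%, 1.97% and 0.829% in the brains and 6.04%, 6.42%, 6.32%, 5.52% and 5.54% in the tumours. For Psmb10 it was 17.7%, 16.8% and 17.9% in the brains and 9.99%, 12.1%, 11.3%, 14.5% and 10.2% in the tumours. Thus Psmb8 transcripts came close to the level of Psmb5 in the tumours, Psmb9 remained far below Psmb6, and the Psmb10 share was lower in every tumour than in any brain. The log2 ratio differed by 3.24 for Psmb8 over Psmb5, by 1.93 for Psmb9 over Psmb6 and by -0.70 for Psmb10 over Psmb7. Each of these 3 differences had an exact permutation p of 0.0357 (two-sided), the smallest possible here, and an adjusted p of 0.0536, which misses 0.05. These are shares of transcripts, and the subunits in assembled proteasomes were not measured. In brains 1 to 3 the shares rest on 14, 15 and 43 Psmb8 fragments and on 8, 8 and 4 Psmb9 fragments.

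**Figure D3:**
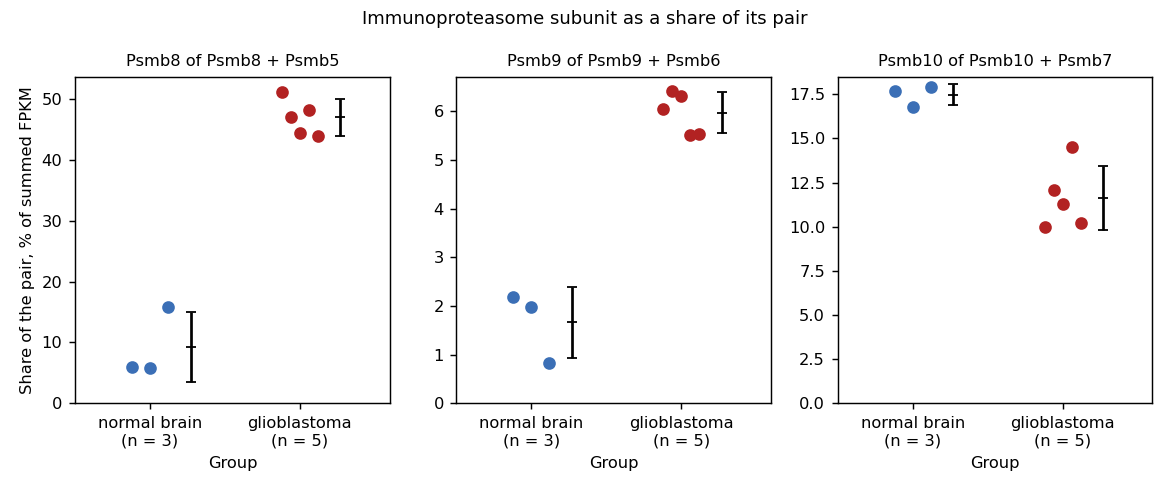
Share of each immunoproteasome subunit in the summed FPKM of its pair with the standard subunit, in percent, one point a library, with the group mean ± SD in black. The mean share is 9.24% in brain and 47.0% in tumours for Psmb8, 1.66% and 5.97% for Psmb9, and 17.5% and 11.6% for Psmb10.

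The standard catalytic subunits rose as well, and so did most of the proteasome core. All 3 standard catalytic genes were higher, Psmb5 by 0.95 ± 0.15, Psmb6 by 1.29 ± 0.14 and Psmb7 by 1.26 ± 0.16 on the log2 scale (SE). Of 11 other core subunits 10 were higher, and all 11 had a positive log2 fold change, led by Psma7 (1.66 ± 0.21), Psmb3 (1.53 ± 0.16) and Psma2 (1.48 ± 0.16), with a list median of 1.26. Psma3 did not pass, with a log2 fold change of 0.53 and an edgeR adjusted p of 0.0588. Of 9 activator and assembly genes 8 were higher and 1 lower. The interferon-inducible activator genes Psme2 and Psme1 rose by 2.30 ± 0.30 and 1.73 ± 0.25, Psme4, which encodes the activator PA200, rose by 1.56 ± 0.27, and Psme3, which encodes a nuclear activator, fell by 0.61 ± 0.13 on the log2 scale (SE).

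Most partners in trimming, folding and loading were higher. Among 12 such genes, 9 rose, 2 fell and 1 missed the threshold, with a median log2 fold change of 1.29. Sec61b, a subunit of the translocation channel, rose by 2.48 ± 0.21, Erap1, which trims peptides in the endoplasmic reticulum, by 2.37 ± 0.28, and the chaperone gene Hspa5 by 2.24 ± 0.20 on the log2 scale (SE). The cytosolic aminopeptidase gene Npepps fell by 1.03 ± 0.12. Lnpep, which encodes an aminopeptidase of endosomes, changed by -0.54 ± 0.22 on the log2 scale (SE; edgeR adjusted p = 0.0485) and lost its call under 12 of 18 alternative settings.

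Class Ib and class I-like heavy chains, relatives with narrower roles, were mostly higher where they could be tested. Of 23 such genes 12 could be tested, and 11 were higher, with a median log2 fold change of 2.55. All 12 fold changes were positive, but 5 of the 12 passed the filter only through the tumours (H2-Q4, H2-Q6, H2-Q7, H2-T10 and Cd1d1). The other 7 lay above the filter's level in all brains, and all 7 were higher. Untested genes went both ways. H2-Q1 had 12 fragments over the brains, 11 of them in brain 3, and 3 over the tumours. H2-Q8 had 0 over the brains and 66 over the tumours, 25 in tumour 3 and 41 in tumour 5. These are raw counts, and the brains held 21425595 fragments in all against 47467839 in the tumours. H2-Q4 averaged 0.832 ± 0.529 CPM in brain (SD, n = 3) and 17.2 ± 4.38 CPM in the tumours (SD, n = 5). It rose by 4.34 ± 0.42 on the log2 scale (SE), or 4.99 without brain 2. H2-Q7 rested on 2 brain fragments, both in brain 3, and stood at 5.70 ± 2.01 CPM in the tumours, 62.7 times the brain level (95% counting interval 17.4 to 518). H2-Q6 rested on 1 brain fragment and stood at 2.50 ± 1.57 CPM in the tumours, 55.0 times the brain level (9.87 to 2171), with values that overlapped between the groups. These intervals cover counting error only, and H2-Q genes resemble one another, so that fragments may have been divided between them.

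Factors known to act on class I promoters went both ways, as all tested genes did. Among 14 such factors, 7 rose, 4 fell and 3 missed the threshold, with a median log2 fold change of 0.71. Of all tested genes, 37.1% were called higher and 33.9% lower, so this split says little about the factors themselves. Ciita passed the filter only through the tumours, and among the 13 factors above its level in every brain 6 were higher and 4 lower. The number lower was 2 when any one brain was left out. Among the RFX subunits, Rfxap fell by 0.93 ± 0.20, while Rfx5 (-0.24; edgeR adjusted p = 0.336) and Rfxank (0.34; edgeR adjusted p = 0.404) did not pass. The NF-Y subunit gene Nfyb fell by 0.66 ± 0.17. Irf1, an interferon-induced activator, rose by 3.28 ± 0.30 and Irf8, a factor of myeloid cells, by 3.12 ± 0.21 on the log2 scale (SE). Irf2, often a repressor at the same sites, changed by -0.72 ± 0.28 on the log2 scale (SE; edgeR adjusted p = 0.0466), with overlapping groups, and lost its call under 11 of 18 alternative settings. Ciita, the class II counterpart of Nlrc5, rested on 1 brain fragment and stood at 2.88 ± 1.10 CPM in the tumours, 63.4 times the brain level (95% counting interval 11.4 to 2503).

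Genes of interferon signalling were mostly higher, while transcripts of Ifng and Ifnb1 were scarce or absent. Of 14 genes 12 were tested, and 10 were higher and none lower by edgeR. Socs1 passed the filter only through the tumours, and 9 of the 11 genes above its level in every brain were higher. Jak1 came closest to a fall, with a log2 fold change of -0.29 and an edgeR adjusted p of 0.0555. It was the 1 gene of the list lower at an unadjusted p under 0.05, and DESeq2 also gave 1 lower gene. The feedback inhibitor Socs3 rose by 5.49 ± 0.25, Irf9, a factor of the interferon response, by 2.64 ± 0.22 and the inhibitor Socs1 by 2.51 ± 0.46 on the log2 scale (SE). Ifng had 2 fragments over all 8 libraries and Ifnb1 had 0, and neither could be tested.

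The 5 tumours differed from one another in these genes to an unequal degree. The SD of log2 CPM over the 5 tumours had a median of 0.25 for the 10 genes and 0.38 for all genes tested. Over the 3 brains, the medians were 0.28 and 0.15. The largest tumour value was 1.14 times the smallest for Psmb8, 1.96 times for Tapbp, 2.01 times for B2m and 2.86 times for Nlrc5. Tumour 4 was the lowest tumour for 5 genes (H2-K1, H2-D1, B2m, Tapbp and Nlrc5) and the highest for Psmb8, and tumour 5 was the lowest for Tap1, Tap2, Psmb8 and Psmb9. The same order was not counted over all tested genes. Against the mean of the 5 tumours, tumour 4 stood at -0.97 on the log2 scale for Nlrc5 and at -0.68 for B2m, but at -0.08 for Psmb9 and -0.12 for Tap1.

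**Figure D4:**
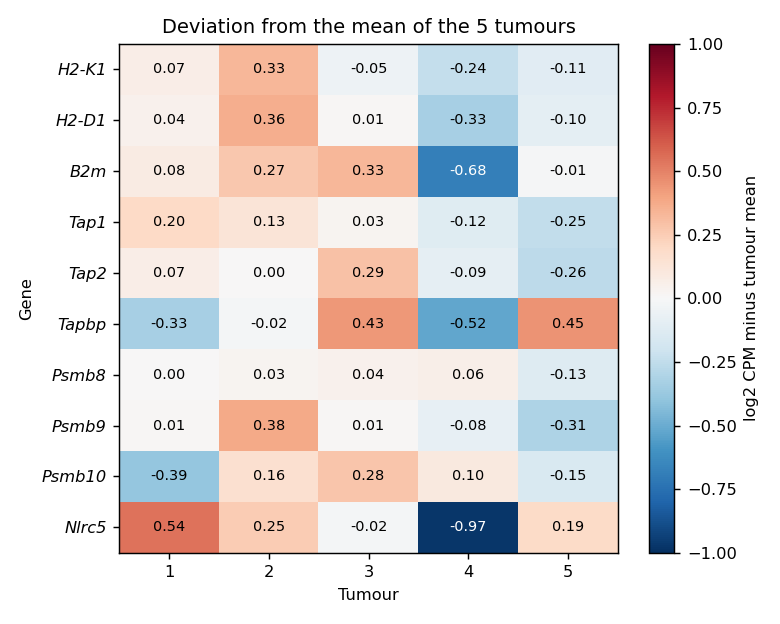
Log2 CPM of each gene in each tumour minus the mean over the 5 tumours, as a coloured grid. Tumour 4 is low for Nlrc5 (-0.97), B2m (-0.68) and Tapbp (-0.52), and Psmb8 is nearly level across the tumours.

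Most macrophage, monocyte, pan-leukocyte and myeloid markers were higher in the tumours too. The summed level of 12 macrophage and monocyte markers was 26.6 to 50.3 CPM in the brains and 1034, 2349, 2578, 1001 and 2182 CPM in tumours 1 to 5, and 11 of the 12 were higher, 7 of which passed the filter only through the tumours. Clec4d and F10 were at 0 in the brains. All 8 pan-leukocyte and myeloid markers were higher. Their sums were 180 to 202 CPM in the brains and 850, 1148, 1195, 610 and 1072 CPM in the tumours. Both sums were lowest in tumour 4, the tumour that was lowest for 5 of the 10 genes. The sums of the endothelial, neuron, T and NK cell and dendritic cell markers were lowest there too. How many of all tested genes were lowest in tumour 4 was not counted, and its library was the deepest (15564279 fragments). The microglia, astrocyte and oligodendrocyte sums were highest in tumour 4. Tap1, Tap2, Psmb8 and Psmb9 were lowest in tumour 5, and Psmb10 in tumour 1. Psmb8 was highest in tumour 4, at 61.0 CPM against 53.7 to 60.4 CPM in the others. Tumour 1, whose macrophage and monocyte sum of 1034 CPM was close to that of tumour 4, was the highest for Tap1 and Nlrc5. Lyz2, Arg1 and Mrc1 made up most of that sum in every tumour. Of these, Lyz2 was lowest in tumour 1, and Arg1 and Mrc1 were lowest in tumour 4.

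Other immune markers and the endothelial markers were low or changed less. The 8 microglia markers summed to 336 to 361 CPM in the brains and 383 to 563 CPM in the tumours, with 4 higher and 3 lower. The 12 T and NK cell markers summed to 0.289 to 1.35 CPM in the brains, where 7 of them were at 0, and to 4.83 to 8.53 CPM in the tumours. Only Klrb1c and Gzmb among these could be tested, through the tumours alone, and both were higher, with 1 and 0 fragments over the brains and 82 and 62 over the tumours. Of the untested markers, Cd3e had 1 fragment over all tumours, Cd3d 5, Cd8b1 7, Ncr1 8 and Cd2 16. Cd8a had 17, Nkg7 17, Prf1 21, Cd3g 22 and Cd4 42. Over the brains Cd4 had 11 fragments and each of the others 0 or 1. The 4 B cell markers summed to at most 1.55 CPM in any library. The 7 dendritic cell markers summed to 19.9 to 24.9 CPM in the brains and 14.3 to 21.3 CPM in the tumours. Flt3 and Zbtb46 made up most of that sum, and of these Zbtb46 was lower and Flt3 was not called. Batf3 and Ccr7, which passed the filter only through the tumours, were higher, and both were highest in tumour 4. The 7 endothelial markers, whose cells express class I genes, summed to 109 to 121 CPM in the brains and 231 to 433 CPM in the tumours. Of these 7, 5 were higher and 2 were not called. The part of these cells in the class I changes was not tested.

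The labelled tissue was checked against its own markers as well. The 5 neuron markers summed to 5165 to 6179 CPM in the brains and 116 to 452 CPM in the tumours. The 5 astrocyte markers summed to 4369 to 4772 CPM and 678 to 1692 CPM, and the 5 oligodendrocyte markers to 2825 to 5522 CPM, highest in brain 1, and 191 to 627 CPM. Of these, 4 neuron, 3 astrocyte and 5 oligodendrocyte markers were lower in the tumours, and the others did not pass the test.

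**Figure D5:**
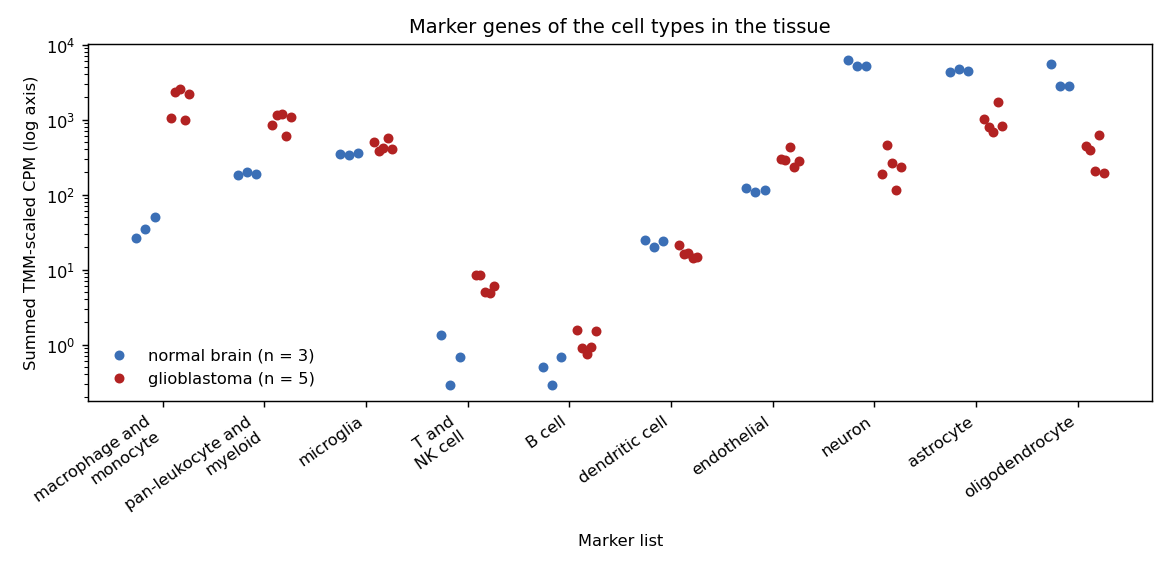
Summed CPM of each marker list in each library, on a log axis, with brains and tumours as separate points. The macrophage and monocyte sum is 26.6 to 50.3 CPM in brains and 1001 to 2578 CPM in tumours, and the neuron sum falls from 5165 to 6179 CPM to 116 to 452 CPM.

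Genes other than the 10 were compared with the mean of the 10 centred log2 CPM profiles, by the root mean square difference over the 8 libraries. They were 10184 genes with a tumour mean of at least 10 CPM. The nearest was Eif2ak2, the double-stranded RNA-activated kinase gene, with a difference of 0.0776. It was followed by the kinesin gene Kif18a (0.0969), the lysosomal protease gene Ctss (0.116), the guanylate-binding protein gene Gbp7 (0.122) and the cytochrome P450 gene Cyp4f16 (0.136). Their log2 fold changes lay between 3.21 and 3.38, while those of the 10 genes ran from 0.56 (Psmb10) to 5.57 (Nlrc5), so the mean profile stands for no single gene. All 8 libraries entered this measure, the step between brain and tumour included.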

How the data were processed

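Per the labels' protocols, total RNA was isolated by RNeasy columns with a DNase step and sequenced as TruSeq RNA libraries. STAR 2.3.0e, Cuffdiff 2.1.1 and the mm9 build are named in the submitters' processing notes, without roles or settings. Neither the annotation, nor any filter, nor the handling of strand is stated there. The authors deposited, for each of 30967 RefSeq accessions and each library, an estimated count of fragments and an FPKM value, per the file headers.

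Accessions were given symbols from the RefSeq table of GRCm38.p6 (30474) or GENCODE (178). The 315 without a symbol held 0.507% of fragments. Estimated counts were summed per gene and rounded. The sums of the 10 genes were whole within 0.01 in every library, while 608 other genes had a sum that was not. Each of the 28 pairs of libraries differed by more than sampling noise (smallest chi-square over degrees of freedom 5.17). Samples were grouped by the tissue in the labels and numbered in accession order, which pairs none of them.

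The main test was edgeR 4.0.16 (TMM factors, default low-count filter, robust quasi-likelihood F test), with Benjamini-Hochberg adjustment over 14641 genes and a threshold of 0.05, run in R 4.3.3 and tested on simulated data. TMM factors scale the CPM values, except in the library depths and the filter's level, with a prior count of 2 on the log2 scale. Ratios of genes used the FPKM values deposited by the authors, on the log2 scale with a pseudocount of 0.1, and two-sided exact permutation tests adjusted over 6 ratios. Genes with 1 to 3 brain fragments have a level ratio with an exact Poisson interval.

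Named genes were the 10 genes, Psmb5 to Psmb7, Trp53, Hras, the 3 called genes with the largest change in each direction of each pathway list, and the 5 nearest profiles. Genes named beside a low count or a failed test (Rfx5, Rfxank, Psma3, Jak1, Ifng, Ifnb1 and single markers) were chosen after their values were seen. The 10 genes and all lists were chosen with earlier results of these data known. The alternatives were DESeq2 1.42.0, scaling by RLE, by upper quartile or by library size alone, no filter, 5 CPM in 3 samples, limma 3.58.1 on log2(FPKM + 1) and log2(FPKM + 0.1), and each library left out. A fit without brain 1 and tumour 4 and a fit with libraries thinned to one depth were chosen after seeing the data. A gene of the interferon signalling list is not reported here. Stretches of 50 bases shared between transcripts were also counted after seeing the data, in place of a protein comparison that was not run here.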

Additional observations from a re-analysis of the deposited data

How the results depend on the processing

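The rise of H2-K1, H2-D1, B2m, Tap1, Tap2, Tapbp, Psmb8, Psmb9 and Nlrc5 kept its direction and its call under all 18 alternatives, and Psmb10 kept its direction in all and its call in 15. The number of the 10 genes called higher was 9 to 10 throughout. The median log2 fold change of all genes moved from 0.06 to 0.18 with upper quartile factors and to 0.20 with library size only, and the share of higher among called genes from 52.2% to 56.3% and 57.2%.

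The smaller counts moved more. The number of trimming, folding and loading genes called lower was 2 as reported and 1 with RLE or upper quartile factors, with library size only, with no filter, with brain 1 and tumour 4 both left out, and thinning, and 1 to 2 with a single library left out (1 without any one of the brains or of tumours 1, 2 and 3). The number of promoter factors called lower was 4 as reported, 2 with upper quartile factors, library size only, and brain 1 and tumour 4 both left out, and 2 to 4 with a single library left out. It was 2 without brain 1, without brain 2 and without brain 3. The number of interferon signalling genes called lower was 0 as reported and 1 with DESeq2, the 5 CPM filter, both limma scales and thinning, and 1 without tumour 5. The log2 fold change on the log2(FPKM + 1) scale was 2.78 for Tap1 and 2.62 for Psmb9. With a library left out, H2-Q7 reached 8.68, Ciita 7.68 and H2-Q6 7.47, each without brain 3, the brain that held all their brain fragments, so that these 3 values depend on the prior count. The B2m ratio lay between -0.18 and 0.00 with a library left out, and was 0.00 without tumour 4. The cause of the other moves was not tested.

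With a library left out, the smallest exact p is 0.0571 (3 against 4) or 0.0952 (2 against 5), so the ratio tests could not pass. No paired analysis was possible because the labels give the groups no shared replicate numbers. Tap1, Tap2, Psmb8, Psmb9, Nlrc5 and several H2-Q genes had few fragments in the brains, which limits the precision of their fold changes and ratios.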
